A study of Mus musculus with 6 samples.

Results

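The genes described here are 10 factors that build and organise the microtubule spindle: Numa1, Tpx2, Tacc3, Ckap5, Aurka, Hmmr, Plk1, Nusap1, Haus6 and Kif2b. They were taken by symbol (GENCODE release M21) from the 51826 Ensembl genes counted in each library, and all 10 were found and passed the low-count filter. RNA came from the whole testis of C57BL/6J mice, which were 8 weeks old. Mice with a KIFC1 knockout (3 libraries) were compared with wild type (3 libraries). The labels do not say how the knockout allele was made, whether it was limited to a cell type, or whether each library came from a separate animal, so that p-values measure the spread between these libraries, which may be technical.

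KIFC1 is a kinesin-14 motor that slides and crosslinks microtubules towards their minus ends, and so helps to gather those ends into spindle poles. The genes treated here act in the same structure. Aurora A kinase (Aurka), its activator TPX2 (Tpx2) and Polo-like kinase 1 (Plk1) start the assembly of the poles and the growth of microtubules. NuMA (Numa1) and RHAMM (Hmmr) hold minus ends together at the poles. TACC3 (Tacc3) and the microtubule polymerase ch-TOG (Ckap5) stabilise kinetochore fibres, the augmin subunit HAUS6 (Haus6) starts new microtubules from the sides of old ones, NUSAP1 (Nusap1) bundles microtubules around chromosomes, and the kinesin-13 motor KIF2B (Kif2b) removes tubulin from microtubule ends. In the testis such spindles form in mitotic spermatogonia and in spermatocytes at both meiotic divisions.

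The libraries held between 29274603 and 38703606 counts, and each of these genes had between 378 and 38454 counts in every library. Levels are given as counts per 1000000 counts (CPM) after TMM scaling, which corrects library sizes for composition. Kifc1 itself was at 0.326, 0.737 and 0.282 CPM in knockout libraries 1, 2 and 3, against 15.5, 16.1 and 14.7 CPM in wild-type libraries 1, 2 and 3 (edgeR adjusted p = 0.00378). The trend with GC content was taken from each library's log2 CPM relative to the gene's mean over all libraries. This relative trend was negative in every knockout library and positive in every wild-type library. Values relative to a common mean balance between libraries, so that both signs must occur. They do not give the trend of a library on its own. Spearman's rho across 12751 genes was -0.279, -0.695 and -0.131 in knockout 1, 2 and 3, and ran from 0.262 to 0.548 in wild type. Knockout 2 stood apart from the other knockout libraries. The log2 fold change itself had a rho of -0.533 with GC content. Genes are not independent replicates. The log2 fold changes of the 10 genes are therefore also given after removing, library by library, the trend of counts with GC content and exon length (written below as "trends removed"). Because the trend goes with the group, this also takes out any group difference that follows GC content or exon length. The 2 cannot be told apart here. Kifc5b, a near-identical copy of Kifc1 that may share its reads, had a log2 fold change of -0.93, without passing the test (edgeR adjusted p = 0.0744).

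Kif2b had by far the highest level per exon length of the 10 genes, and Hmmr the lowest mean, which in knockout was not separate from that of Haus6. Per kilobase of annotated exon, Kif2b stood at 449 ± 81.0 CPM in knockout and 322 ± 28.6 CPM in wild type (SD, n = 3 each). The wild-type level of Kif2b was 139 times that of Hmmr, which had 3.25 ± 0.258 and 2.31 ± 0.346 CPM per kilobase in knockout and wild type. Aurka (78.3 ± 5.44 in knockout and 100.6 ± 22.5 in wild type) and Plk1 (86.6 ± 35.7 in knockout and 72.3 ± 2.32 in wild type) came next in CPM per kilobase. A middle group had means between 10.4 and 16.8 CPM per kilobase in knockout and between 10.7 and 16.3 in wild type, and held Tacc3, Tpx2, Ckap5, Nusap1 and Numa1. Haus6 followed with 3.75 ± 0.410 in knockout and 2.95 ± 0.147 CPM per kilobase in wild type. In wild type, the libraries of neighbours in this order overlapped between Tpx2 and Ckap5, Ckap5 and Nusap1, and Nusap1 and Numa1, so that those ranks are not resolved. In knockout, neighbours overlapped between Tacc3 and Tpx2, Tpx2 and Ckap5, Nusap1 and Numa1, Haus6 and Hmmr, and Aurka and Plk1, with Plk1 above Aurka in libraries 1 and 3. Per kilobase in wild type, Kif2b lay above 99.3% of the tested genes, Aurka above 96.9% and Plk1 above 95.4%, while Haus6 and Hmmr lay near the middle (53.5% and 48.7%).

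**Figure D1:**
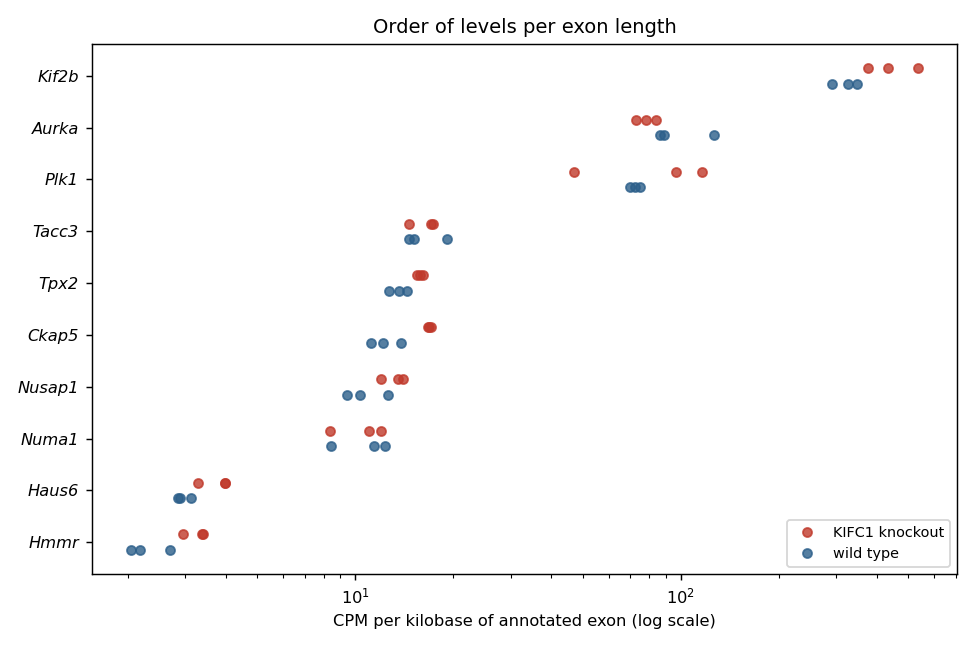
Level of each gene in CPM per kilobase of annotated exon (log axis, 1 point per library, knockout red and wild type blue, genes ordered by the wild-type mean). Kif2b stands far above the other genes in all libraries, Aurka and Plk1 follow, 5 genes share a band from 8 to 20, and Haus6 and Hmmr stay below 4.

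The genes lie on 5 autosomes (build mm10). Chromosome 2 carries Nusap1 (119618298 to 119651244), Ckap5 (91526762 to 91620664), Tpx2 (152847964 to 152895321) and Aurka (172356190 to 172370535). Chromosome 7 carries Numa1 (101934111 to 102014964) and Plk1 (122159439 to 122169873), and chromosome 11 carries Hmmr (40701395 to 40733422) and Kif2b (91575315 to 91577558). Tacc3 is on chromosome 5 (33658128 to 33678995) and Haus6 on chromosome 4 (86578855 to 86612055). Kif2b consists of 1 uninterrupted exon of 2244 bases, whereas Ckap5 has 45 exon blocks. The strand setting of the counting is not given in the sources used here. The exons of Tacc3 share 289 bases with Tmem129, those of Nusap1 172 bases with Oip5 and those of Numa1 80 bases with Il18bp, each on the opposite strand, so that reads there cannot be assigned with certainty. Plk1 shares 156 exon bases with Gm44985 on the opposite strand and Ckap5 shares 93 with Snord67 on the same strand, genes with 8 and 6 counts over all libraries.

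Proximal promoters are shown for the 5 genes with the highest levels per kilobase or the smallest p-values, because many spindle genes are read in the G2 and M phases through CCAAT boxes (bound by NF-Y) and the cell cycle genes homology region (CHR). RefSeq promoter sequence (GRCm38.p6) was found for 9 of the 10 genes. For 7 of these 9, bases just after the start site were found in an annotated transcript of the gene. The Numa1 start site follows chr7:101969842 and so lies inside the annotated gene, which begins at 101934111. The 150 bases before the start site of each of the 9 genes were searched on both strands for CCAAT and for the CHR letters TTTGAA or TTCGAA. Matches are in capitals, each line reads 5′ to 3′ on the gene's own strand, and the last base is the one before the start site. The stretches are chr2:91526612-91526761 (plus strand) for Ckap5, chr11:40733438-40733587 (minus) for Hmmr, chr2:172370571-172370720 (minus) for Aurka, chr7:122159285-122159434 (plus) for Plk1 and chr11:91577556-91577705 (minus) for Kif2b.
Ckap5: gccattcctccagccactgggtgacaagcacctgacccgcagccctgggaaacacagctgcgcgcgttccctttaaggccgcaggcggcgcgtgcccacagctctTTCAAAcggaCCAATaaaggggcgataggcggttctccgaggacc
Hmmr: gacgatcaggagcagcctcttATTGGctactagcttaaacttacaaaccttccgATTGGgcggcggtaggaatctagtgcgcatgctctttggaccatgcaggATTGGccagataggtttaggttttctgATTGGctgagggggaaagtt
Aurka: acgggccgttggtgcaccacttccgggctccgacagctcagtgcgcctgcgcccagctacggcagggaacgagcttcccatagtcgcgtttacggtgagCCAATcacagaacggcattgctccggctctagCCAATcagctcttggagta
Plk1: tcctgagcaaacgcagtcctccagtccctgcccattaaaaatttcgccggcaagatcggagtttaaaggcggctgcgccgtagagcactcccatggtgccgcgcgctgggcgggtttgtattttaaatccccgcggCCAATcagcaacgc
Kif2b: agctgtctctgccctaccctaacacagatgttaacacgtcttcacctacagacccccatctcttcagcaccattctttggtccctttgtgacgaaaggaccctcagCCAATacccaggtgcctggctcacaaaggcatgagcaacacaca
Hmmr held 4 CCAAT matches, Aurka 2, and Ckap5, Plk1, Kif2b and Haus6 1 each, so that 6 of 9 genes had a match, as did 24.5% of 32851 promoters in the same window. Ckap5 alone had a CHR match, a motif found in 9.7% of promoters, and its CHR and CCAAT letters did not overlap. A match is a description of letters and not a shown binding site.

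None of the 10 genes passed the test between knockout and wild type. Most had a somewhat higher mean in knockout: the log2 fold change (knockout over wild type) was above 0 for 8 of 10, against 49.3% of all tested genes, with a median of 0.28 among the 10 and -0.0088 over all. By edgeR's quasi-likelihood test with Benjamini-Hochberg adjustment over 21518 genes, 0 of 10 had an adjusted p under 0.05, where 8.23% of all tested genes did. At an unadjusted p under 0.05 there were 3 (Ckap5, Kif2b and Hmmr), against 27.1% of all genes, and DESeq2 called 1 (Ckap5), against 15.4%. The 95% intervals of all 10 log2 fold changes, not adjusted for the number of genes, lay between -0.76 and 0.90, inside a 2-fold change in either direction. In bulk testis, fewer cells of a type and less RNA per cell cannot be told apart.

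**Figure D2:**
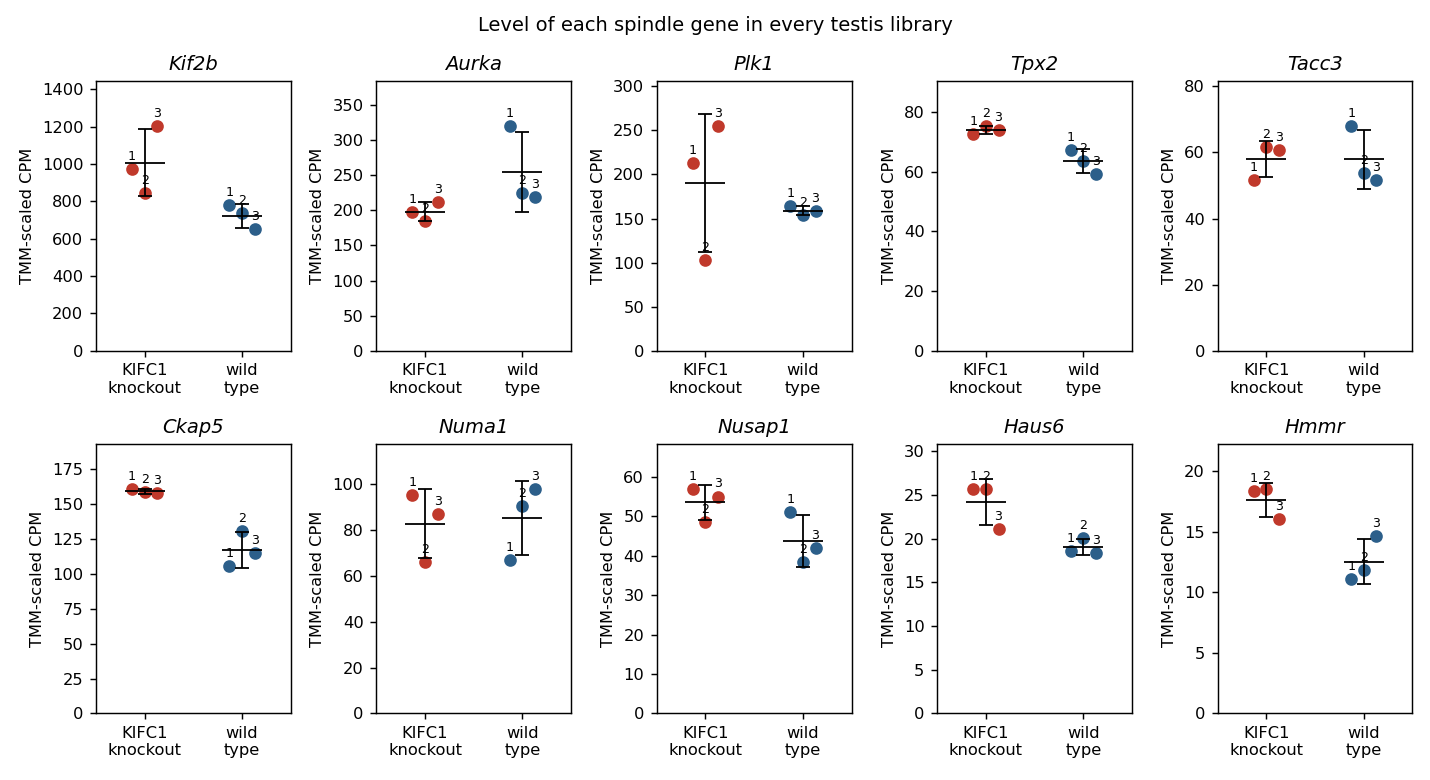
TMM-scaled CPM of each gene in the 3 knockout libraries (red, left) and the 3 wild-type libraries (blue, right), numbered by replicate, with mean and SD as black bars. Tpx2, Ckap5, Haus6, Hmmr and Kif2b are higher in every knockout library than in any wild-type library, Aurka is lower in every one, and knockout 2 is the lowest Plk1 library.

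Of the pole kinases, Aurka had a lower mean in knockout and Plk1 a wide spread there. Aurka stood at 197, 185 and 212 CPM in knockout 1, 2 and 3, against 320, 225 and 218 CPM in wild type 1, 2 and 3. Groups did not overlap, but wild type 2 and 3 were within 15 CPM of the highest knockout library and wild type 1 was far above them. The log2 fold change was -0.36 (SE 0.18, edgeR adjusted p = 0.227) and was -0.14 without wild type 1. Plk1 stood at 213, 103 and 255 CPM in knockout, against 164, 154 and 159 CPM in wild type. Knockout 1 and 3 were above every wild-type library and knockout 2 below all of them, which left means of 190 ± 78.5 in knockout and 159 ± 5.10 CPM in wild type (SD, n = 3 each). The log2 fold change of Plk1 was 0.26 (SE 0.28, edgeR adjusted p = 0.594), or 0.56 without knockout 2 (edgeR adjusted p = 0.0290) and 0.012 without knockout 3.

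Tpx2, which carries Aurora A to spindle microtubules and activates it, stood at 72.5, 75.3 and 73.8 CPM in knockout, against 67.3, 63.7 and 59.3 CPM in wild type. Every knockout library lay above every wild-type library, by little. Its log2 fold change was 0.22 (SE 0.13, 95% interval -0.081 to 0.52, edgeR adjusted p = 0.322).

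Of the genes that hold minus ends at the poles, Hmmr had a higher mean in knockout and Numa1 a nearly equal one. Hmmr stood at 18.3, 18.5 and 16.0 CPM in knockout, against 11.1, 11.8 and 14.7 CPM in wild type. The groups were separate, with knockout 3 and wild type 3 the closest libraries. On the log2 scale Hmmr differed by 0.49 (SE 0.18, edgeR adjusted p = 0.121), or 0.21 with the trends removed. Numa1, whose protein links dynein to the poles, stood at 95, 66.0 and 87.0 CPM in knockout, against 66.9, 90.4 and 97.9 CPM in wild type. The groups overlapped over nearly their whole range, with knockout 2 and wild type 1 the low libraries. Its log2 fold change was -0.041 (SE 0.20, 95% interval -0.49 to 0.41, edgeR adjusted p = 0.919), and it was above 0 when wild type 2, wild type 3 or knockout 2 was left out.

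TACC3 and ch-TOG work as a complex on kinetochore fibres. In knockout the mean of Ckap5 was higher, and that of Tacc3 was nearly equal to wild type. Ckap5 stood at 161, 159 and 158 CPM in knockout, against 105, 131 and 115 CPM in wild type. The knockout libraries lay within 4 CPM of each other and above all wild-type libraries. Ckap5 had a log2 change of 0.44 (SE 0.14, 95% interval 0.13 to 0.76), the smallest p of the 10 genes, at an edgeR adjusted p of 0.0793 and a DESeq2 adjusted p of 0.0309. Tacc3 stood at 51.8, 61.6 and 60.8 CPM in knockout, against 68.0, 53.9 and 51.8 CPM in wild type. The groups overlapped fully, and the log2 fold change was 0.0036 (SE 0.16, 95% interval -0.37 to 0.37, edgeR adjusted p = 0.992), with a sign that turned when library size alone set the scale or when single libraries were left out.

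Haus6, of the augmin complex, stood at 25.7, 25.7 and 21.2 CPM in knockout, against 18.6, 20.1 and 18.4 CPM in wild type. Every knockout library was above every wild-type library, knockout 3 by about 1 CPM. Its log2 fold change was 0.35 (SE 0.16, edgeR adjusted p = 0.207). Nusap1 stood at 57.0, 48.6 and 55.0 CPM in knockout, against 51.1, 38.3 and 41.9 CPM in wild type. Wild type 1 lay above knockout 2, so that the groups overlapped. Its log2 fold change was 0.29 (SE 0.16, edgeR adjusted p = 0.285), or 0.44 without wild type 1.

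Kif2b, the most abundant of these mRNAs, stood at 974, 844 and 1203 CPM in knockout, against 778, 735 and 652 CPM in wild type. The lowest knockout library, knockout 2, was above the highest wild-type library. The log2 fold change was 0.48 (SE 0.17, 95% interval 0.099 to 0.86, edgeR adjusted p = 0.109), and it was 0.59 without knockout 2 (edgeR adjusted p = 0.0320). That fit, without knockout 2, called Kif2b and Plk1 as higher and no other of the 10 genes, where 6.62% of all genes were called higher.

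Libraries of the groups did not overlap for 6 of the 10 genes, against 32.7% of all tested genes: 5 were higher in knockout, against 14.6% of all tested genes, and 1 was lower, against 18.1%. With the trends removed, Kif2b was the 1 gene of the 10 that was separate and higher (12.7% of all genes), and 0 were separate and lower (14.3%). The genes under 48% GC, which were Hmmr, Ckap5, Nusap1, Haus6 and Tpx2, had log2 fold changes between 0.22 and 0.49, and between 0.083 and 0.21 with the trends removed. Of these, Ckap5 went to 0.11 (SE 0.13) and Hmmr to 0.21 (SE 0.16). Aurka (51.7% GC) had -0.19 (SE 0.15) with the trends removed, Tacc3 0.13 and Numa1 0.17. For the GC-rich Plk1 (56.1% GC) the log2 fold change was larger with the trends removed, at 0.60 (SE 0.24, 95% interval 0.068 to 1.14, edgeR adjusted p = 0.189). Kif2b (50.5% GC) moved little, to 0.59 (SE 0.15, 95% interval 0.25 to 0.92, edgeR adjusted p = 0.0922). No gene of the 10 was called in that fit, which called 0.0511% of all genes.

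**Figure D3:**
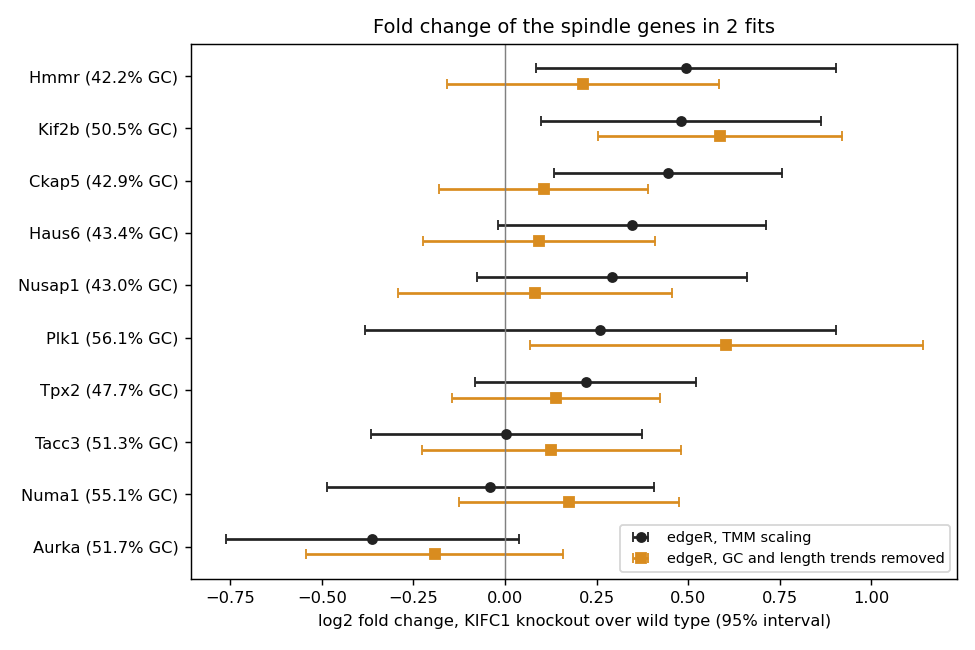
Log2 fold change (knockout over wild type) with 95% interval for each gene, by edgeR with TMM scaling (black circles) and with GC and length trends removed (orange squares), ordered by the first. Removing the trends takes Ckap5, Hmmr, Haus6 and Nusap1 towards 0 and takes Plk1 to 0.60 and Kif2b to 0.59, above their 0.26 and 0.48 before.

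With the trends removed, Kif2b stood at 1045, 884 and 1198 CPM in knockout, against 711, 706 and 665 CPM in wild type. Its wild-type libraries drew together to 694 ± 25.1 CPM, while the knockout libraries kept a spread of 157 CPM around 1042 (SD, n = 3 each). Plk1 then stood at 242, 131 and 263 CPM in knockout, against 143, 133 and 142 CPM in wild type. Knockout 2 lay just below the wild-type libraries and knockout 1 and 3 well above them. Without knockout 2 and with the trends removed, a fit chosen after the values were seen, the log2 fold changes were 0.86 for Plk1 (SE 0.11, edgeR adjusted p = 0.00711) and 0.69 for Kif2b (SE 0.11, edgeR adjusted p = 0.0135), where 12.8% of all genes were called. Knockout 2 also had the lowest share of mitochondrial counts among knockout libraries (1.54%, against 5.74% and 4.29% in knockout 1 and 3 and 0.661% to 0.935% in wild type), and the part of that difference in these values was not tested.

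**Figure D4:**
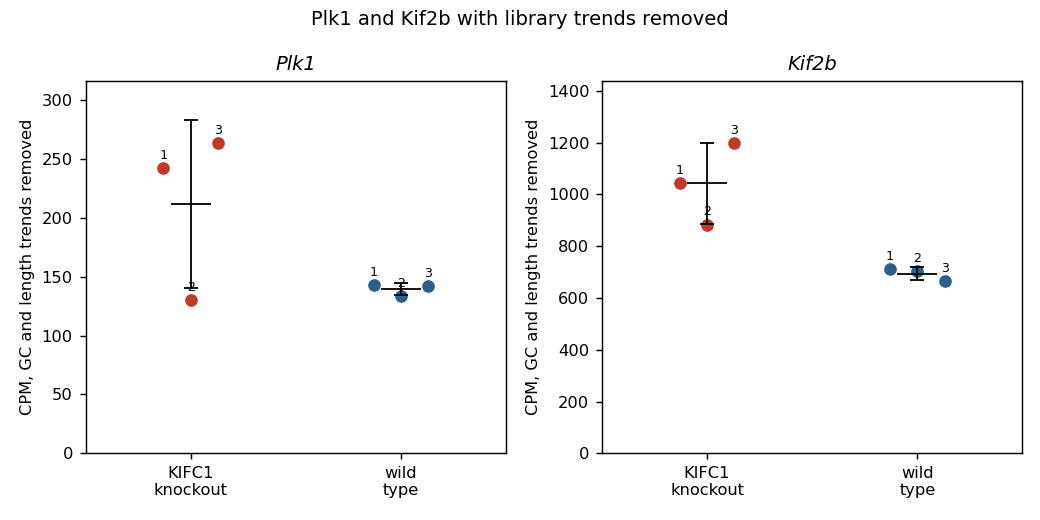
CPM of Plk1 and Kif2b after removal of each library's trend with GC content and exon length, in knockout (red, left) and wild type (blue, right), numbered by replicate, with mean and SD. For Kif2b all knockout libraries lie above 880 and all wild-type libraries below 720, and for Plk1 knockout 2 lies at 131 beside the wild-type libraries.

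Ratios between partners within a library do not depend on how libraries are scaled. Of the 4 pairs compared, Tpx2 to Aurka and Tacc3 to Ckap5 were separate between the groups. In CPM per kilobase, the ratio of Tpx2 to Aurka was 0.199, 0.220 and 0.188 in knockout, against 0.114, 0.153 and 0.147 in wild type, so that the activator's mRNA was higher relative to that of its kinase in every knockout library. The difference of mean log2 ratios was 0.56, at an exact two-sided permutation p of 0.1, which is the smallest that 3 libraries against 3 allow (0.2 adjusted over the 4 pairs). It was 0.32 with the trends removed. Tacc3 to Ckap5 was 0.855, 1.03 and 1.02 in knockout, against 1.72, 1.10 and 1.2 in wild type. All knockout ratios were below all wild-type ratios, with a log2 difference of -0.44 (exact permutation p = 0.1, adjusted 0.2, smallest possible 0.1), which was 0.026 with the trends removed and so did not keep its sign. The ratios of Hmmr to Tpx2 (log2 difference 0.28) and Plk1 to Aurka (0.50) overlapped between the groups (exact permutation p = 0.3 each). With the trends removed, the log2 difference was 0.079 for Hmmr to Tpx2 and 0.72 for Plk1 to Aurka, the largest of the 4 in that setting. Without knockout 2, Plk1 to Aurka had 0.85 and Tpx2 to Aurka 0.50.

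**Figure D5:**
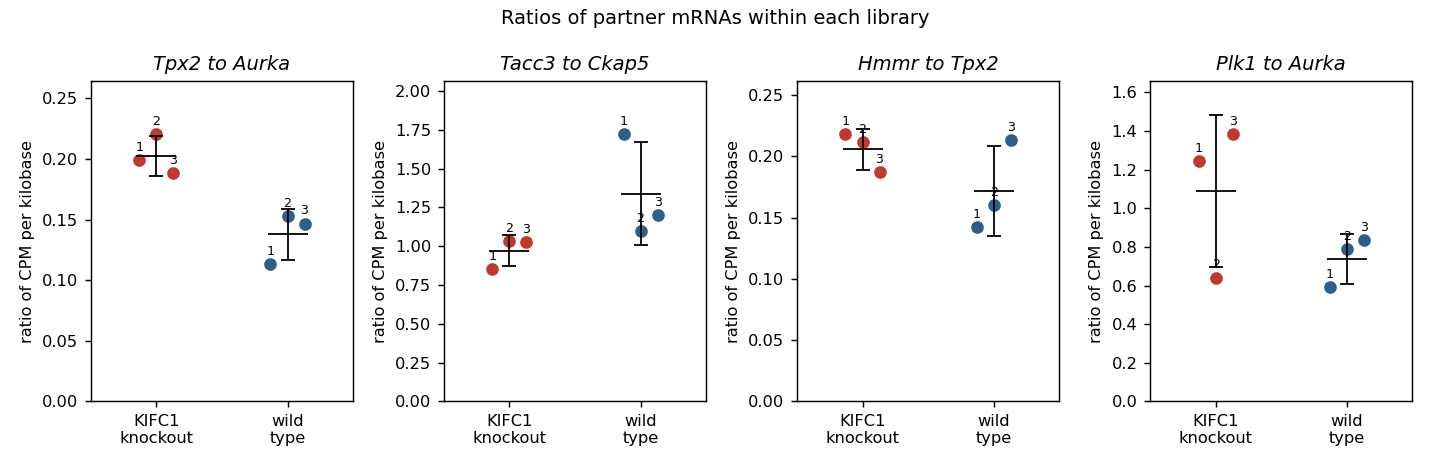
Ratio of CPM per kilobase between partner mRNAs in each knockout (red, left) and wild-type library (blue, right), numbered by replicate, with mean and SD. The groups are separate for Tpx2 to Aurka and for Tacc3 to Ckap5 and overlap for the other pairs.

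The wider spindle assembly pathway was read from 93 other genes in 10 lists, all of which were tested. Of these, 2 rose and 4 fell, against 3.11% and 5.12% of all tested genes, with a median log2 fold change of 0.015 against -0.0088 over all genes. With the trends removed 0 rose and 0 fell, and the median was -0.092. The calls lay in augmin, among Ran-regulated factors and among spindle kinesins. These lists are described next because they hold the calls, and their counts are to be read beside the same 3.11% and 5.12%.

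Of the 7 other augmin subunits, 0 rose and 2 fell. Haus4 fell to 75.6 ± 5.82 CPM in knockout, against 122 ± 18.5 CPM in wild type (log2 fold change -0.69, SE 0.16, edgeR adjusted p = 0.0335). Haus5 fell to 7.57 ± 1.02 CPM in knockout, against 13.6 ± 2.21 CPM in wild type (-0.85, SE 0.21, edgeR adjusted p = 0.0401), though its exons share 1952 bases with Gm21982 on the same strand and its level is uncertain. Haus1, Haus2, Haus3, Haus7 and Haus8 had log2 fold changes from -0.18 (Haus8) to 0.45 (Haus3), and the exons of Haus1, Haus2, Haus3 and Haus8 overlap those of another gene. Haus4 (57% GC) and Haus5 (55.9% GC) had -0.28 and -0.51 with the trends removed, and Haus3 (36.9% GC) had -0.24.

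Among 12 Ran-regulated factors, 0 rose and 2 fell. Ran, the GTPase that frees spindle factors from importins near chromosomes, fell to 345 ± 87.7 CPM in knockout, against 662 ± 163 CPM in wild type (SD, n = 3 each, log2 fold change -0.94, SE 0.23, edgeR adjusted p = 0.0426). Wild type 1, at 842 CPM, was the highest library and knockout 1, at 269 CPM, the lowest. Mcrs1, whose protein protects the minus ends of kinetochore fibres and whose exons share 174 bases with 1700120C14Rik, fell to 75.8 ± 5.77 CPM in knockout, against 155 ± 22.6 CPM in wild type (-1.03, SE 0.16, edgeR adjusted p = 0.0161). With the trends removed they were at -0.97 and -0.64, without a call.

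Of 10 spindle kinesins, 2 rose and 0 fell. Kif2a, a kinesin-13 like Kif2b, rose to 292 ± 14.9 CPM in knockout, against 182 ± 17.5 CPM in wild type (log2 fold change 0.68, SE 0.14, edgeR adjusted p = 0.0251), though its exons share 1229 bases with Dimt1 on the opposite strand. The third kinesin-13, Kif2c, stood at 302 ± 14.1 CPM in knockout and 315 ± 19.98 CPM in wild type (-0.063, SE 0.13, edgeR adjusted p = 0.794). Kif15, a plus-end motor that can support spindle bipolarity, rose to 47.4 ± 5.59 CPM in knockout, against 29.5 ± 0.812 CPM in wild type (0.69, SE 0.15, edgeR adjusted p = 0.0320). Kif2a (41.3% GC) was at 0.32 and Kif15 (42% GC) at 0.27 on the log2 scale with the trends removed, against 0.59 for Kif2b.

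In the other 7 lists 0 genes passed. At an unadjusted p under 0.05 these 64 genes held 5 higher and 5 lower, or 15.6% in all against 27.1% of all tested genes. DESeq2 called Ccnb1, Tacc2 and Clta, or 4.69% against 15.4%. The genes of smallest p in each list had these log2 fold changes: -0.53 for Mzt2 and -0.46 for Tubgcp6 of the gamma-tubulin ring complex, 0.44 for Cep192 and -0.48 for Ninl of the pole scaffold, and -0.37 for the dynactin gene Dctn1 and 0.48 for Epb41 among NuMA and dynein partners. Among regulators of Aurora A and Plk1 they were -0.70 for the cyclin gene Ccnb1 (SE 0.22, edgeR adjusted p = 0.0874) and -0.47 for Aurkb. Among TACC, clathrin and plus-end factors they were 0.92 for Tacc2 (SE 0.28, edgeR adjusted p = 0.0773) and 0.54 for the clathrin light chain gene Clta. Kinetochore fibre factors had -0.35 for Spag5 and 0.26 for Ttk, and of the severing factors Katnbl1 had 0.26. Exons of Tubgcp6, Ninl, Katnbl1 and Epb41 overlap those of other genes, which for Epb41 were Gm13063 and Gm10300, with 6 and 0 counts over all libraries. With the trends removed the values changed sign for Dctn1 (0.031) and Katnbl1 (-0.33) and came near 0 for Cep192 (0.067) and Ttk (0.064). They were -0.17 for Mzt2, -0.33 for Tubgcp6, -0.23 for Ninl, 0.28 for Epb41, -0.87 for Ccnb1, -0.23 for Aurkb, 0.89 for Clta and -0.29 for Spag5. Tacc2, a relative of Tacc3, had 0.996 with the trends removed, against 0.13 for Tacc3.

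Markers of testis cell types were measured beside these genes. No marker in the 11 lists had 0 counts over the libraries together. With the trends removed 0 markers were called in any list, so that each call named here was lost, in a fit that called 0.0511% of all genes. Without that removal, 3.11% of all tested genes were called higher in knockout and 5.12% lower. Summed over 8 markers of leptotene and zygotene spermatocytes, levels ran from 270 to 351 CPM in knockout and from 195 to 225 CPM in wild type, without overlap, and 1 of 8 rose (Ankrd31, of meiotic prophase) and 0 fell. Their median GC content was 39.9% and their median log2 fold change 0.43, or -0.050 with the trends removed. Over 12 genes of dividing cells the sums ran from 1031 to 1072 CPM in knockout and from 956 to 972 CPM in wild type, also without overlap, with 0 called. In that list 6 of 12 genes had a log2 fold change above 0, and the median was 0.035, or 0.015 with the trends removed. The smallest p-values belonged to genes of both signs: the log2 fold change was 0.69 for Cenpe, a kinetochore motor (SE 0.22, edgeR adjusted p = 0.0807), 0.87 for Mki67, a proliferation marker (SE 0.28, edgeR adjusted p = 0.0892), and -0.49 for Birc5, of the chromosomal passenger complex (SE 0.16, edgeR adjusted p = 0.0944). Birc5 was named after its value was seen. Sums over pachytene and diplotene markers ran from 5660 to 6888 CPM in knockout and from 6535 to 8765 CPM in wild type (1 of 9 rose, the transcription factor gene Mybl1). Ldhc was their largest part, with 2370 to 3525 CPM in knockout and 3080 to 4658 CPM in wild type. Spermatogonial markers ran from 102 to 117 CPM in knockout and from 100 to 124 CPM in wild type (1 of 9 fell, Sohlh1). Round spermatid sums ran from 1209 to 1580 CPM in knockout and from 1130 to 1448 CPM in wild type (0 of 8 called). Elongating spermatid sums ran from 18480 to 30430 CPM in knockout and from 23870 to 25370 CPM in wild type (Smcp rose, and the protamine gene Prm1 and the transition protein gene Tnp2 fell, of 9). Smcp alone held 7584, 2206 and 9260 CPM in knockout 1, 2 and 3, a large part of the range of that sum. In wild type 1, 2 and 3 it held 1549, 1934 and 1861 CPM. In that list 4 of 9 genes had a log2 fold change above 0. Sertoli sums ran from 1033 to 1619 CPM in knockout and from 744 to 1087 CPM in wild type. Clu alone held 858 to 1364 CPM of these in knockout and 600 to 880 CPM in wild type. Leydig sums ran from 1020 to 1563 CPM in knockout and from 610 to 1329 CPM in wild type. Their largest parts, Insl3 and Cyp17a1, had log2 fold changes of -0.38 and 1.10. In either list 0 were called. The median log2 fold change was 0.84 for Leydig markers (6 of 7 above 0), or 0.77 with the trends removed. For Sertoli markers it was 0.19 (6 of 9 above 0), or 0.57 with the trends removed. Myoid sums ran from 176 to 250 CPM in knockout and from 147 to 209 CPM in wild type, and macrophage sums from 82.9 to 111 CPM in knockout and from 56.8 to 106 CPM in wild type. Endothelial sums ran from 43.9 to 55.0 CPM in knockout and from 31.1 to 59.5 CPM in wild type, and 0 were called in these lists. The part of any of these in the values of the spindle genes was not tested.

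The 10 genes did not share 1 profile across the 6 libraries. The libraries differ in depth and GC trend, and all genes are exposed to the same differences. As a description over these 6 libraries, Pearson's r of log2 CPM was highest between Ckap5 and Haus6 (0.871) and lowest between Numa1 and Tacc3 (-0.884). Tpx2, Nusap1 and Plk1 each had Kif2b as their most similar member (0.813, 0.789 and 0.622). For every one of the 10, between 678 and 4884 other tested genes were more similar than the nearest member. Hmmr had Ckap5 (0.832), and Aurka and Tacc3 had each other (0.557). The most similar of all tested genes is the highest of 21517 values over 6 libraries, and such a search alone can give r near 1. It was Trpm6 for Kif2b (0.996), Pcbp3 for Plk1 (0.998), Ftsj3 for Tpx2 (0.996), Mmp15 for Numa1 (0.996) and Gtf2a2 for Tacc3 (0.984). Kat6b-ps1 was nearest to Ckap5 (0.998), 4933409D19Rik to Aurka (0.997), Gm45861 to Hmmr (0.998), Fam228a to Nusap1 (0.99) and Uggt2 to Haus6 (0.996).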

How the data were processed

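RNA of 6 mouse testes libraries (3 KIFC1 knockout, 3 wild type) was analysed from the deposited raw counts per Ensembl gene, not normalized by the authors. The submitters' processing notes name Trimmomatic, HISAT2, HTSeq and build mm10. Their versions, annotation release and strand setting were not given in the sources used here. Symbols, exon lengths and transcript GC content came from GENCODE M21, which matched 51633 of 51826 identifiers.

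Groups were compared in R 4.3.3 by the quasi-likelihood test of edgeR 4.0.16 after filterByExpr and TMM, fitted to 21518 genes without covariates, with calls at a Benjamini-Hochberg adjusted p under 0.05 (two-sided). The fits were tested on simulated data. There, with the libraries' own GC and length trends, the fit without offsets called more unchanged genes than the fit with offsets. Those trends had been estimated by the same method that removed them, so this cannot show which fit suits the real libraries. Alternatives were DESeq2 1.42.0, other scalings and filters, a replicate block, fits without mitochondrial genes, each library left out, and offsets removing each library's trend with GC content and exon length (splines, 5 degrees of freedom, 12751 genes). Libraries of a group all differed by more than counting noise (lowest chi-square over its degrees of freedom, 15.4). Likeness used log2 of CPM plus 0.1.

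The genes and lists were chosen with earlier results of these data known. All 10 genes are named, with the 2 genes of smallest p per pathway list, all augmin subunits and kinesin-13 genes, and the 2 of smallest p among dividing-cell genes; 1 gene that this rule names is not reported here. The promoters printed and the description of the remaining genes were chosen after values were seen. Intervals cover the spread between libraries.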

Additional observations from a re-analysis of the deposited data

How the results depend on the processing

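Kifc1 kept its direction and call under all 15 alternatives (log2 fold change from -5.65 to -4.84 with single libraries left out). The count of called genes among the 10 was 0 under most alternatives. It was 1 with DESeq2 (Ckap5), from 0 to 2 with single libraries left out, and 2 (Plk1 and Kif2b) without knockout 2 and, in a fit added after the data were seen, without knockout 2 and with GC and length offsets. Of the 93 pathway genes, 6 were called, against 2 without a filter, 11 with DESeq2, 0 with the offsets, 16 with the offsets and without knockout 2, and from 0 to 15 with single libraries left out (0 without wild type 1, wild type 2 or knockout 1, 1 without wild type 3 or knockout 3, and 15 without knockout 2). Over all genes 1770 were called, against 1010 without a filter, 3305 with DESeq2, 11 with the offsets and from 1 to 3149 with single libraries left out. The cause of these changes was not tested.

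Same-numbered libraries did not deviate together (r = -0.473, -0.12 and -0.14 over 12761 genes). No knockout library correlated best with the wild-type library of its own number. The check gave no sign of pairing by number but cannot exclude it, because deviations from the mean of so few libraries are tied to each other. The labels only number the samples. With a replicate block 0 of the 10 genes, 0 pathway genes and 21 of all genes were called, and with the block and the offsets 0, 0 and 5.

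Numa1 turned to 0.17 with the offsets, with or without the block, to 0.23 with the offsets and without knockout 2, and ran from -0.16 to 0.099 with single libraries left out (0.0033, 0.071 and 0.099 without wild type 2, wild type 3 and knockout 2). Tacc3 turned to -0.0090 with library size alone and ran from -0.072 to 0.16 (-0.048, -0.072, -0.041 and -0.012 without wild type 2, wild type 3, knockout 2 and knockout 3). The log2 ratio of Tacc3 to Ckap5 turned to 0.026 with the offsets. The other genes kept their sign. Without single libraries there were log2 fold changes from 0.012 to 0.56 for Plk1, 0.35 to 0.59 for Kif2b and -0.46 to -0.14 for Aurka. With 3 libraries a group, every one of the 10 genes with a log2 difference under 0.4 in size had an interval that held 0.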
